A study of Mus musculus with 6 samples.

Results

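Metallothioneins and the genes of zinc handling were followed in mouse CD8+ T cells through 10 genes, chosen by symbol: the metallothioneins Mt1, Mt2 and Mt3, the zinc-sensing transcription factor Mtf1, the zinc transporters Slc30a1, Slc30a4 and Slc30a5 of one family, and Slc39a1, Slc39a6 and Slc39a10 of the other. They were 10 of the 15964 named genes and were read by 20 probe sets, every probe set annotated with one of these symbols. The genes were picked with earlier results of the same arrays in view, so the values below describe them and no p-value is given.

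The CM (central memory) cells were cultured from spleen and lymph nodes of female P14 mice on the C57Bl/6 background, given their cognate peptide for 2 days and then IL-15 for 7 days, and sorted for a high level of a surface marker. The E/EM (effector/effector memory) cells came from the same kind of mice and the same peptide stimulation, were then kept in IL-2 for 7 days, and were sorted for a low level of that marker. The transgenic T cell receptor of P14 mice is fixed, so nearly all responding CD8+ T cells recognise the same viral peptide. Total RNA of either kind went onto 3 types of array with different probe sets, called SubA, SubB and SubC. There was 1 array per kind of cell and array type. The labels do not give the number of mice or say whether 1 RNA extract served all 3 arrays of a kind. Culture cytokine and sort differ together between CM and E/EM cells and cannot be told apart.

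Metallothioneins are small cysteine-rich proteins that bind zinc and copper and buffer the free zinc of the cytosol. When cytosolic zinc rises, the transcription factor MTF-1 binds short DNA motifs called metal response elements (MREs) and raises transcription of Mt1, Mt2 and the zinc exporter gene Slc30a1. Transporters of the SLC30 family move zinc out of the cytosol, across the plasma membrane or into organelles, and those of the SLC39 family move it into the cytosol. In T cells zinc also holds the kinase LCK to the tail of the CD8 or CD4 coreceptor.

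Ratios are the log2 of the CM signal over the E/EM signal and are negative where CM cells had the weaker signal. A ratio was taken for a probe set whose signal lay above a floor on both arrays. The floor was set from bacterial control probe sets, at 31.28 on SubA, 88.12 on SubB and 194.34 on SubC. A gene's value is the mean over its probe sets with a ratio, given with the standard deviation (SD) over those probe sets, which is technical. Signals of different probe sets are not comparable as levels of RNA. Of the 20 probe sets, 16 gave a ratio, 1 lay above the floor in CM cells alone and 3 lay at or under it in both kinds of cells.

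Of the 10 genes, 2 were at least 2-fold lower in CM cells, where 5.61% of all 10946 measured genes were. The 2 were Mt2 and Mt1. At least 2-fold higher in CM cells was 1 gene, Slc30a4, where 2.73% of all measured genes were. Of the other 7 genes, 6 lay within 0.5 of 0 on the log2 scale, as did 69.4% of all measured genes, and Mtf1 lay outside that range but under 2-fold at 0.72 ± 0.69 (SD, 4 probe sets). The median over the 10 genes was -0.11, against -0.0025 over all measured genes. With 1 array per kind and type these differences have no replicate check.

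**Figure D1:**
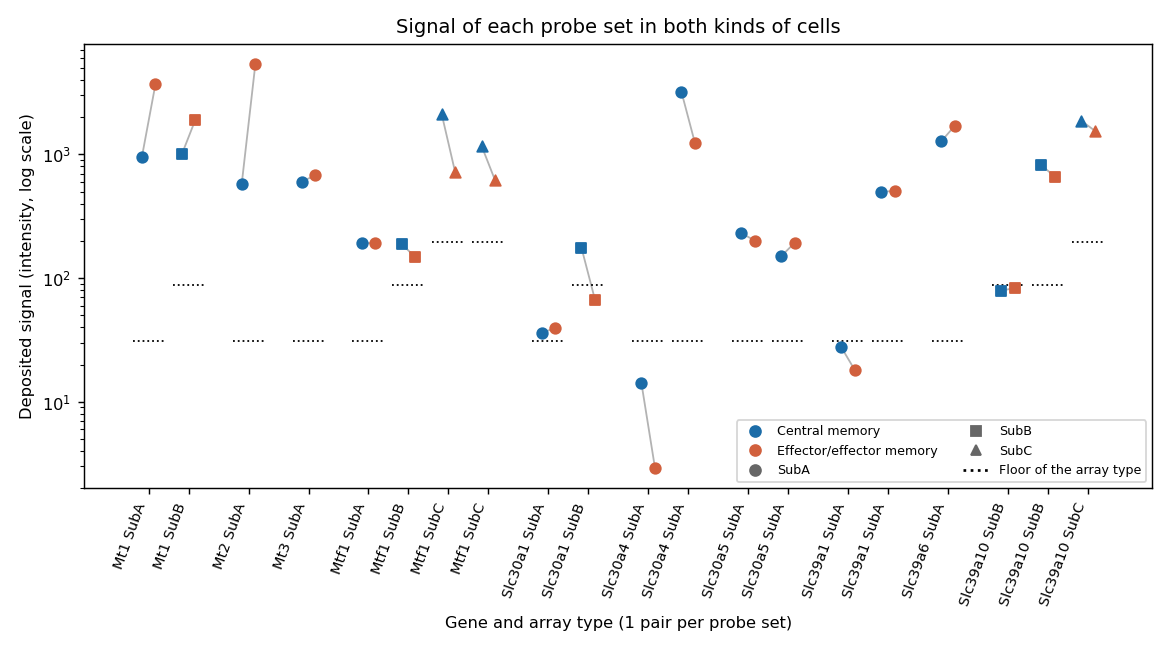
Deposited signal (log axis) of each of the 20 probe sets of the 10 genes, 1 pair per probe set with CM cells on the left in blue and E/EM cells on the right in orange. Marker shapes give the array type and dotted lines its floor. Both Mt1 pairs and the Mt2 pair climb towards E/EM cells, with the steepest line for Mt2, which had 581.1 in CM cells against 5359 in E/EM cells, while the bright Slc30a4 pair slopes the other way, with 3205.6 in CM cells against 1231.4 in E/EM cells.

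The promoter windows of Mt1, Mt2, Mt3 and Slc30a4 are shown because Mt1, Mt2 and Slc30a4 were the genes past 2-fold, and Mt3 is the neighbour of Mt2 whose signal was close to equal in both kinds of cells. In RefSeq order on chromosome 8 the coding genes Mt4, Mt3, Mt2 and Mt1 follow each other with no other coding gene between. The sequences are RefSeq windows of 300 bases on build GRCm38.p6, from 250 bases before to 50 after the annotated start, written 5′ to 3′ on the strand of the gene. Capitals mark matches to the MRE core on either strand.
Mt1, chr8:94178839-94179138, plus strand: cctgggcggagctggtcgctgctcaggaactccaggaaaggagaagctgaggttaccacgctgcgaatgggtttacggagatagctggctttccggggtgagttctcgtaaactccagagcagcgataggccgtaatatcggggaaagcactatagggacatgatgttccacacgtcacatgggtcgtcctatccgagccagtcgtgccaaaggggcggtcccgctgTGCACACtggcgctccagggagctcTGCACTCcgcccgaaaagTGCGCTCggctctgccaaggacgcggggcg
Mt2, chr8:94172368-94172667, plus strand: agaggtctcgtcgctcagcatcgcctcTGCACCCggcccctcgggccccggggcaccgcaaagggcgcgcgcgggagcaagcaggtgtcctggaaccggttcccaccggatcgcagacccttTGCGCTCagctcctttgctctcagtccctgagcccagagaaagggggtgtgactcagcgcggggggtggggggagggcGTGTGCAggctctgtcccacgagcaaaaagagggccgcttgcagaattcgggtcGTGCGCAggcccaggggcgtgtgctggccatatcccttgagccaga
Mt3, chr8:94152357-94152656, plus strand: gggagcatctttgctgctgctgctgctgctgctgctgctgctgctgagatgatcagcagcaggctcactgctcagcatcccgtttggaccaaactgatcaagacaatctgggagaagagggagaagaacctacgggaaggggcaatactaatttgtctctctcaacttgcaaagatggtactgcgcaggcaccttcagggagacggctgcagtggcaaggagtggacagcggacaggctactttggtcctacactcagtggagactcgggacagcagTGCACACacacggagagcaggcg
Slc30a4, chr2:122702614-122702913, minus strand: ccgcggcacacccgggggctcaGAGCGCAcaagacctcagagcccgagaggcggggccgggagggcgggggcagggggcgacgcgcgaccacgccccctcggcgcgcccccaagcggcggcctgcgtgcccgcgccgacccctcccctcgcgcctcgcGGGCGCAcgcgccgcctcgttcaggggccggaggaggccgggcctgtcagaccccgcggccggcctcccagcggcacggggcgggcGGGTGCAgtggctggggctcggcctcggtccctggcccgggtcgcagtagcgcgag

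The MRE core was searched as TGCACNC and TGCGCNC on both strands, and no matches overlapped in these windows. Mt2 held 4 matches, Mt1 and Slc30a4 held 3 each, and Mt3 held 1. Among 32851 promoter windows of this length, 25.7% held at least 1 match, 1.97% at least 3 and 0.517% at least 4. Slc30a1 had 2 matches and Slc30a5 had 1, while the windows of Mtf1 and Slc39a1 and both windows of Slc39a10 had 0. Windows were at hand for 9 of the 10 genes, all except Slc39a6. The antioxidant response element, searched as TGACNNNGC, matched once each in the windows of Mt2, Slc30a1, Slc30a5 and Slc39a1, and in 12.4% of all windows. The palindrome that STAT factors bind, searched as TTCNNNGAA, matched in 1 of the 2 windows of Slc39a10 and in 8.30% of all windows. A match is a run of letters in the window and says nothing of binding in these cells. Bases outside these windows were not searched, so the counts are no totals for a gene. The windows with at least 3 MRE matches were those of Mt2 and Mt1, lower in CM cells, and of Slc30a4, higher in them. The shares over all windows were not matched for base content, and a link between matches and ratios was not tested.

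**Figure D2:**
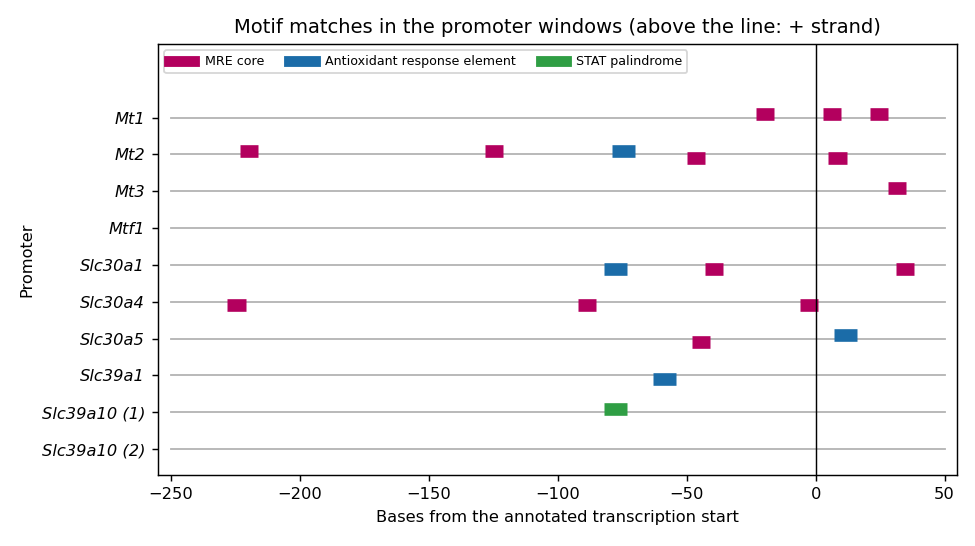
Matches to 3 motifs in the promoter windows of 9 genes, by distance in bases from the annotated transcription start, with plus-strand matches drawn above the line. Mt2 has 4 MRE matches spread over the window, and the 3 in the window of Mt1 lie close to the annotated start.

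Mt2 showed the largest difference of the 10 genes. It encodes one of the pair of metallothioneins that most mouse tissues make. Its single SubA probe set, 101561_at, had a signal of 581.1 in CM cells against 5359 in E/EM cells, which is 9.22-fold lower in CM cells, a log2 ratio of -3.21. Ordered from the lowest ratio, Mt2 ranked 17 among the 10946 measured genes. Both signals stood far above the floor, the weaker one at 18.6 times it.

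Mt1 encodes the other widely made metallothionein. On SubA its probe set 93573_at had 947.9 in CM cells against 3682 in E/EM cells, 3.88-fold lower in CM cells. On SubB the probe set 164402_r_at had 1000.1 in CM cells against 1907.3 in E/EM cells, 1.91-fold lower in CM cells and so just short of 2-fold. The SubA and SubB probe sets thus pointed the same way but differed in size, and the gene's mean was -1.44 ± 0.73 (SD, 2 probe sets) at rank 237 from the lowest. The letter r in a probe set name marks one for which some of the array maker's selection rules were dropped. Without such marked probe sets Mt1 had -1.96. Mt1 and Mt2 are close in sequence, and a probe set of one may take up signal from the other, so each value is uncertain for the individual gene.

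Mt3, known chiefly as the metallothionein of the brain, had a signal of 602.5 in CM cells against 676.2 in E/EM cells. Its log2 ratio of -0.17 put it at rank 3912. Whether this probe set reads Mt3 RNA in T cells or a related transcript was not tested. Mt4, the metallothionein of squamous epithelia and no member of the set, lay under the floor with 7.6 in CM cells against 9.4 in E/EM cells. The metallothionein genes of this cluster therefore did not all differ alike on these arrays: Mt2 and Mt1 were lower in CM cells, Mt3 was close to equal and Mt4 was not measurable.

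**Figure D3:**
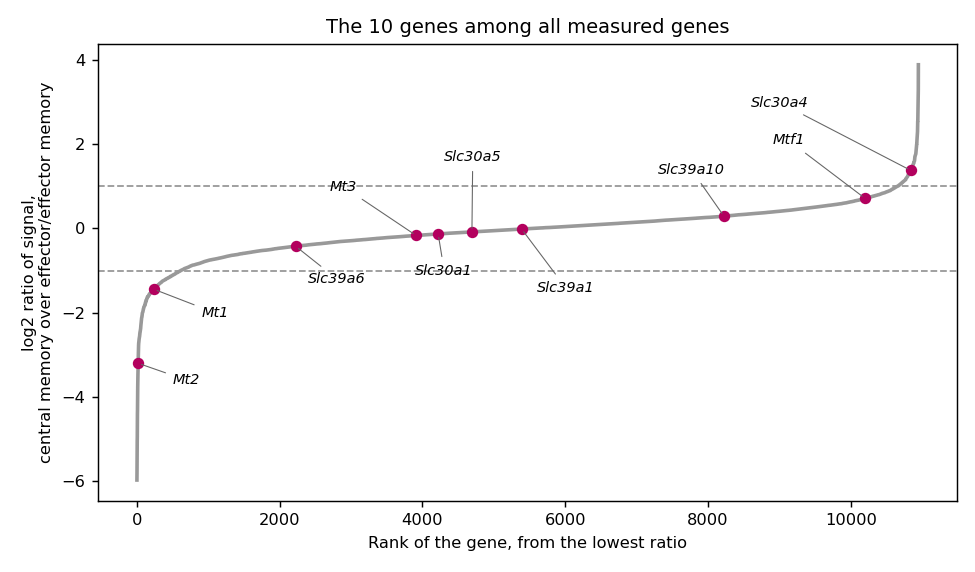
Log2 ratio (CM signal over E/EM signal) for all 10946 measured genes in rank order (grey), with the 10 genes in red and dashed lines at 2-fold. Mt2 and Mt1 lie on the steep lower end at ranks 17 and 237, Slc30a4 on the upper end at rank 10841, and most others on the flat middle.

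Mtf1 encodes the zinc sensor itself, and its 4 probe sets gave different sizes. The SubA probe set had 191.8 in CM cells against 191.7 in E/EM cells, an equal signal. The SubB probe set had 189.5 in CM cells against 147.1 in E/EM cells, a log2 ratio of 0.37. The E/EM signal there was 1.67 times the floor. On SubC the probe set 137989_s_at had 2130.4 in CM cells against 716.4 in E/EM cells, 2.97-fold higher in CM cells.

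The other SubC probe set of Mtf1 had 1171 in CM cells against 614.9 in E/EM cells, 1.90-fold higher. Both SubC probe sets were designed on the same expressed sequence tag, so they are not independent readings, and one bears the letter s, which marks a probe set that may match several genes. Among the 4094 genes with at least 2 ratios, 5.37% had a wider range over probe sets than Mtf1. That share was not matched for the number of probe sets, with which a range grows. The range of Mtf1 was 1.57 on the log2 scale. The gene mean of 0.72 ± 0.69 (SD, 4 probe sets) therefore has no settled size. It was 1.57 by the brightest probe set and 0.00 on SubA alone.

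**Figure D4:**
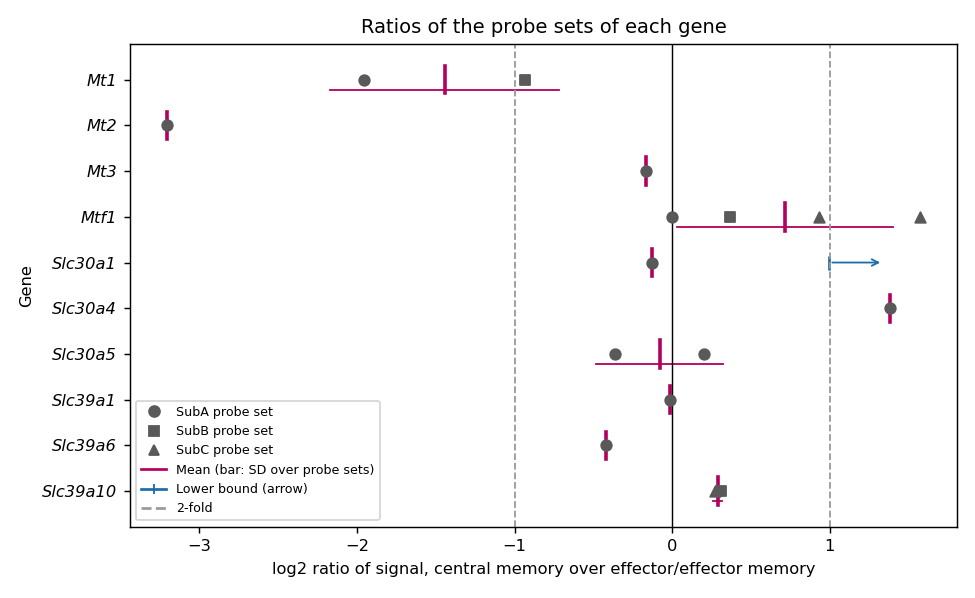
Log2 ratio (CM signal over E/EM signal) of each probe set with a ratio (marker shape by array type), with the mean of each gene as a red tick and the SD over probe sets as a red bar. The arrow on Slc30a1 starts at the bound of a probe set above the floor in CM cells alone, and the 4 probe sets of Mtf1 stretch from 0.00 to 1.57.

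Among the transporters that clear zinc from the cytosol, Slc30a4 stood highest. It encodes ZnT4, which loads zinc into vesicles and, in the mammary gland, into milk. Its SubA probe set 95571_at had 3205.6 in CM cells against 1231.4 in E/EM cells, 2.60-fold higher in CM cells, a log2 ratio of 1.38 at rank 10841 of 10946. A second SubA probe set, 161230_r_at, had 14.1 in CM cells against 2.9 in E/EM cells, both under the floor, and gave no ratio. The value of Slc30a4 thus rests on 1 probe set.

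Slc30a1 encodes ZnT1, the zinc exporter of the plasma membrane and a known MTF-1 target. Its SubA probe set had 36 in CM cells against 39.4 in E/EM cells, a log2 ratio of -0.13, with the weaker signal only 1.15 times the floor. Its SubB probe set had 175.5 in CM cells against 66.4 in E/EM cells, under the floor in E/EM cells alone, and was at least 1.99-fold higher in CM cells. The probe sets disagreed, and the mean became 0.64 with the floor halved, so Slc30a1 has no settled direction.

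Slc30a5 encodes ZnT5, which brings zinc into the secretory pathway. Its first SubA probe set had 230.9 in CM cells against 200.5 in E/EM cells. The other had 150.6 in CM cells against 193.8 in E/EM cells. Both were designed on the same expressed sequence tag and pointed in opposite directions, with a mean of -0.08 ± 0.40 (SD, 2 probe sets).

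The 3 transporters of the set that bring zinc into the cytosol differed little. Slc39a6 encodes ZIP6, a plasma membrane importer, and had 1272.9 in CM cells against 1705 in E/EM cells, a log2 ratio of -0.42 from 1 probe set. Slc39a10 encodes ZIP10, the close relative of ZIP6. Its SubB probe set 116979_at had 820.5 in CM cells against 661.3 in E/EM cells.

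The SubC probe set of Slc39a10 had 1875.8 in CM cells against 1555 in E/EM cells. Those on SubB and SubC gave almost the same ratio, and the gene's mean was 0.29 ± 0.03 (SD, 2 probe sets). A further SubB probe set of Slc39a10 lay under the floor, with 79 in CM cells against 83.2 in E/EM cells. Slc39a1, which encodes the broadly expressed importer ZIP1, had 500.6 in CM cells against 504.3 in E/EM cells on one SubA probe set, a ratio of -0.01. Its other SubA probe set lay under the floor, with 27.6 in CM cells against 18 in E/EM cells. Of these 3 genes, ZIP6 thus had the lowest ratio, ZIP1 an equal signal and ZIP10 the highest, all at most 1.34-fold in size and close to the usual spread between probe sets of a gene, a median SD of 0.32.

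The rest of the zinc transporters, with Mt4, were a list of 19 genes, of which 17 were on the arrays and 13 gave a ratio. None of the 13 was at least 2-fold lower or higher in CM cells, against 5.61% and 2.73% of all measured genes, and their median was -0.10. Slc39a11, which encodes ZIP11, had 392.1 in CM cells against 730.2 in E/EM cells, a log2 ratio of -0.90. Slc39a3, which encodes the importer ZIP3, had the highest ratio, 0.77 ± 0.42 (SD, 2 probe sets). Its SubA probe set alone was 2.10-fold higher in CM cells, with 160.1 in CM cells against 76.3 in E/EM cells.

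Slc39a14 encodes ZIP14, an importer of zinc, iron and manganese. Its 3 SubB probe sets had 133.5, 257.9 and 881.9 in CM cells against 203.7, 430.4 and 1580.1 in E/EM cells. All 3 were lower in CM cells by a similar ratio, with a mean of -0.73 ± 0.12 (SD, 3 probe sets). Slc39a4, which encodes the intestinal zinc importer ZIP4, had -0.72 ± 0.36 (SD, 3 probe sets), and Slc39a8, which encodes ZIP8, an importer known in activated human T cells, had -0.63 ± 0.20 (SD, 2 probe sets). Slc39a4 and Slc39a8 lie outside the rule for named genes and were chosen once their values had been seen.

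Taken by family, a grouping made after the values were seen, 12 of the 13 SLC39 genes on the arrays gave a ratio. Of the 12, 9 lay below 0 and 3 above it, with a median of -0.20, a lowest value of -0.90 and a highest of 0.77. The SLC30 family had 7 genes with a ratio, 4 below 0 and 3 above it, with a median of -0.08. Over all measured genes 50.3% lay below 0. The importers thus lay further below 0 by their median than the exporters did, and neither difference was tested. The SLC30 median is the value of Slc30a5, whose probe sets pointed in opposite directions. Slc30a1, among the 4 below 0, has no settled direction, so the contrast between the families is uncertain.

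**Figure D5:**
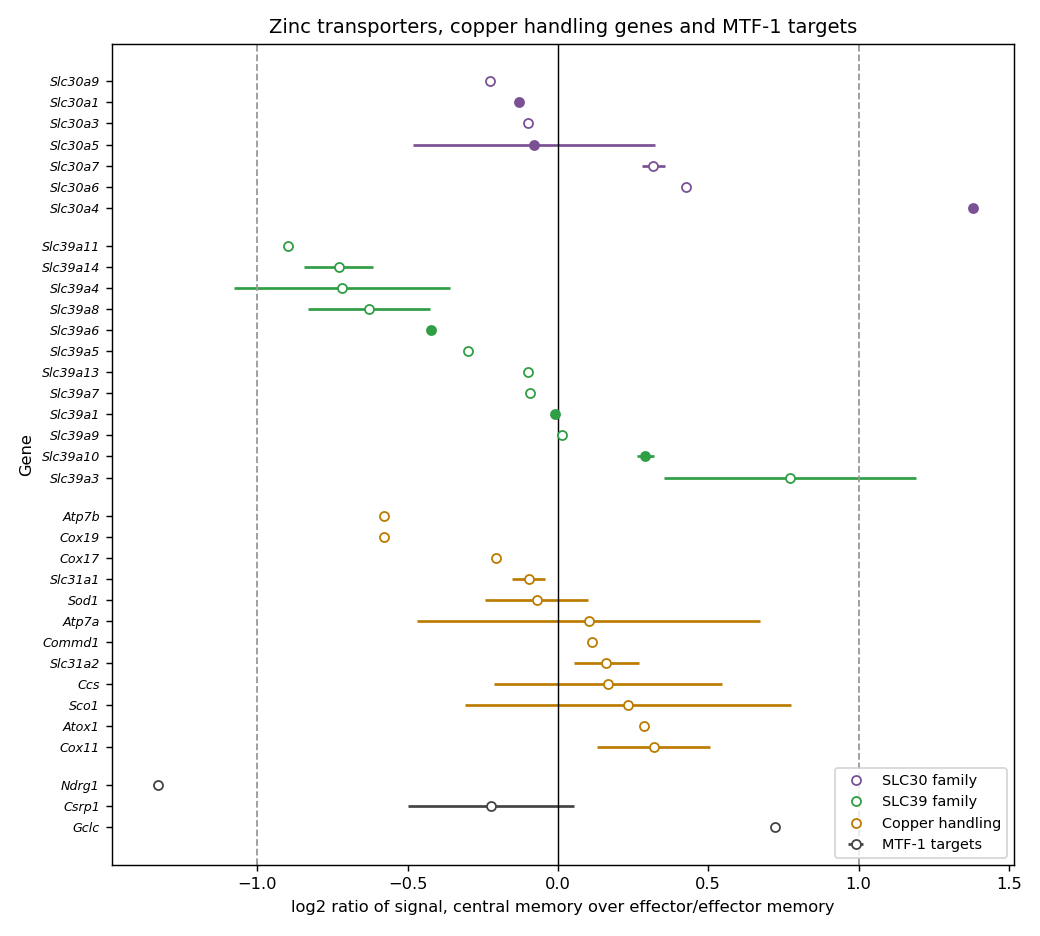
Log2 ratio (CM signal over E/EM signal) of each measured SLC30 and SLC39 transporter, copper handling gene and MTF-1 target, with bars for the SD over probe sets, dashed lines at 2-fold and filled markers for the transporters among the 10 genes. Slc30a4 and Ndrg1 are the points past 2-fold, at 1.38 and -1.33, and Slc39a11, Slc39a14, Slc39a4 and Slc39a8 form the lower end of their family.

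Metallothioneins also bind copper, so genes of copper transport and delivery were set beside them. Of 13 genes 12 gave a ratio, 5 lay below 0 and 7 above it, and the median was 0.11. None was past 2-fold in either direction, against 5.61% lower and 2.73% higher of all measured genes. For 12 genes a count of 0 is close to these shares. The largest in size were Atp7b, a copper-exporting ATPase, at -0.58, Cox19, a mitochondrial copper protein, also at -0.58, and Cox11, which delivers copper to cytochrome oxidase, at 0.32 ± 0.19 (SD, 2 probe sets). Copper handling genes thus held no difference near the size of those of Mt2 and Mt1.

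Other genes reported as MTF-1 targets in mouse cells were Gclc, Ndrg1, Csrp1 and Selenow, of which 3 gave a ratio. Ndrg1, a gene also induced by hypoxia and other stresses, was the 1 gene at least 2-fold lower in CM cells, against 5.61% of all measured genes. Its SubA probe sets had 1478.9 and 1555.9 in CM cells against 3747.6 and 3889.7 in E/EM cells, and the mean was -1.33 ± 0.01 (SD, 2 probe sets). Gclc, which encodes the catalytic subunit of the first enzyme of glutathione synthesis, had 479.8 in CM cells against 290.6 in E/EM cells, a ratio of 0.72. Csrp1 had -0.22 ± 0.28 (SD, 3 probe sets). Selenow had 18.9 in CM cells against 31.4 in E/EM cells, the second value just above the floor. The MTF-1 targets with a ratio thus pointed both ways, with Ndrg1 on the side of Mt2 and Mt1, and Gclc on that of Slc30a4.

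The arrays were close to each other in trimmed mean signal, which scaling before deposit would fix, and in the 3′/5′ ratio of the actin control. Median signals on SubA, SubB and SubC were 109.7, 183.4 and 172.25 in CM cells against 118.65, 214.8 and 169.8 in E/EM cells. The trimmed mean signal lay between 500.1 and 500.3 on all 6, the 3′/5′ ratio of the actin control between 1.06 and 1.17, and the share of probe sets above the floor between 47.1% and 69.1%, lowest on SubC. Cd8a, which encodes a chain of the CD8 coreceptor, was bright in both kinds, with 5882.7 in CM cells against 5133.8 in E/EM cells. Cd8b1 had 12298.3 in CM cells against 8709.3 in E/EM cells, the highest ratio of 5 CD8+ T cell marker genes at 0.50. Cd3g was the lowest at -0.72, with 3079.7 in CM cells against 5083.7 in E/EM cells. Of these 5 genes 3 lay below 0 and 2 above it, with a median of -0.0058. Markers of macrophages, monocytes and neutrophils had 5 of 13 SubA probe sets above the floor in CM cells and 5 in E/EM cells, with summed signals of 468.3 in CM cells against 706.1 in E/EM cells. All 4 myeloid genes with a ratio lay below 0, as Mt1 and Mt2 did, with a median of -0.56. Cd68 was lowest at -1.16, with 89.4 in CM cells against 199.5 in E/EM cells. Csf1r was nearest to 0 at -0.06, and its 2 probe sets pointed opposite ways. They had 50.7 and 47.2 in CM cells against 47.6 and 54.6 in E/EM cells, not far above the floor. The other 3 of the 7 myeloid genes on the arrays, Adgre1, Lyz2 and Itgam, lay under the floor in both kinds. B cell markers summed to 9367.9 in CM cells against 7266.9 in E/EM cells on SubA, mostly from 2 probe sets of Ighm. Such a sum follows its brightest probe sets. A weaker probe set of Ighm had 47.6 in CM cells against 82 in E/EM cells. By gene, 3 of the 5 B cell markers with a ratio lay below 0 and 2 above it, with a median of -0.0051. The helper T cell markers on the arrays pointed both ways. Zbtb7b, a transcription factor of helper T cells, was above the floor in E/EM cells alone, with 19.8 in CM cells against 239.5 in E/EM cells on SubA and 63.3 in CM cells against 857.9 in E/EM cells on SubB, at least 7.66-fold and 9.74-fold lower in CM cells. Cd4 had 131.7 in CM cells against 49.3 in E/EM cells, 2.67-fold higher in CM cells. Erythroid markers summed to 295 in CM cells against 260.6 in E/EM cells on SubA. By gene, 2 of the 4 lay below 0 and 2 above it, with a lowest ratio of -0.50 and a highest of 0.74. The probe sets of Slc4a1 disagreed, with 50 in CM cells against 37.5 in E/EM cells on SubA. On SubC it had 324.9 in CM cells against 689 in E/EM cells. The part of other cells in the ratios was not tested, and in such bulk samples fewer cells of a type and less RNA per cell cannot be told apart.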

How the data were processed

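Probe set signals were deposited as linear intensities in 1 table per array type. The sources used here do not state how the authors made them. Their mean without the lowest and highest 2% of probe sets differed between the arrays of a table by at most 0.00858%, under a limit of 5%, so they were used as deposited. The values were taken as already scaled to a common mean. In that case the closeness was set in advance, and the limit checks little. Samples were grouped by title.

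Symbols came from GEO's platform annotation, checked by Entrez identifier against a RefSeq table (GRCm38.p6), which changed 0 of them. Probe sets with several symbols or none, and 66 control probe sets per table, named no gene. The floor was the higher of a table's 2 arrays' 90th percentiles over 15 bacterial poly-A control probe sets. A probe set above it on 1 array only gave a bound, its signal over the floor. No test was run on single arrays, and genes were counted by a 2-fold rule. The number of arrays limits the precision.

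The members and lists were chosen with earlier results of these data known. The named genes were all members, and of each other list any gene past 2-fold and the 3 with the largest ratios in size. The 10 alternatives changed the normalization, floor, probe set choice, array types or fold rule. The calculation was tested on simulated data (Python 3.11.15, pandas 2.3.3).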

Additional observations from a re-analysis of the deposited data

How the results depend on the processing

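The log2 ratios of Mt1, Mt2, Mt3, Slc30a4 and Slc39a6 kept their direction under all 9 alternatives to normalization, floor, probe set choice and array types. Their ranges were, in that order, -1.96 to -1.44, -3.23 to -3.21, -0.19 to -0.17, 1.36 to 1.40 and -0.44 to -0.42. Mt2, Mt3, Slc30a4 and Slc39a6 each had 1 probe set with a ratio, on SubA and far above the floor. Only a change of normalization could therefore move their values, and the other settings could not check them. With the floor halved, Slc30a1 had 0.636 and Slc39a10 had 0.169, as weaker probe sets came in, and over all named genes 948 were at least 2-fold lower and 480 higher in CM cells. Mtf1 had 1.572 by the brightest probe set and 0.00075 on SubA alone. The number of the 10 genes at least 2-fold higher was 2, with Mtf1 added, with a floor at percentile 60 of a table and by the brightest probe set. In the same settings 182 and 435 of all named genes were at least 2-fold higher, the first among fewer measured genes. A 3-fold rule left 1 of the 10 genes lower, Mt2, and 0 higher, and 0 MTF-1 targets lower. By that rule 169 of the 10946 measured genes were lower and 61 higher.

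Of the other zinc transporters, 1 (Slc39a4) was at least 2-fold lower without the probe sets marked f, g, i, r, s or x in their names. Slc39a3 was at least 2-fold higher on SubA alone and on SubA and SubB without SubC. Over all named genes the lower count was 385 with the floor doubled, 270 (with 182 higher) with the percentile 60 floor, 256 (with 123 higher) on SubA alone and 169 (with 61 higher) by the 3-fold rule; these hold fewer genes or a stricter rule. The median over the 10 genes ranged from -0.13 to 0.04. No value could be given for Slc30a1 at the doubled and percentile 60 floors, for Slc30a5 at the percentile 60 floor and without the marked probe sets, or for Slc39a10 on SubA alone. No paired analysis was possible because each kind of cell had 1 array per array type. Close to 0, Slc39a1 had 0.303 with the floor halved and Slc30a5 had 0.204 by the brightest probe set. Low signal limits Slc30a1 most.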
